A study of Homo sapiens with 18 samples.

Results

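The 6 surface antigens studied here, the epithelial carcinoembryonic antigen family members CEACAM1, CEACAM5, CEACAM6 and CEACAM7 together with EPCAM and CD24, were followed through epithelial-mesenchymal transition (EMT). The members were the rows of the deposited expression table with these 6 gene symbols, 1 row each, among 19849 genes. The table held 18 Affymetrix U133 Plus 2.0 arrays of 3 human lung cancer lines, namely A549, HCC827 and NCI-H358. For each line there were 3 arrays of Parental cells, which received no TGFb, and 3 arrays of EMT cells, called mesenchymal cells here, which had been grown with 2 ng/ml TGFb for 3 weeks by the labels. The study's methods give a range of weeks that differs between the lines. All cells were grown in RPMI1640 with serum and glutamine, and both TGFb and its withdrawal on the day before lysis belong to the mesenchymal arm. The 3 arrays of a group were separate cultures made at one time, of a single established line, so that the p-values describe the spread among such cultures and not among tumors.

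EPCAM is a transmembrane adhesion molecule of epithelial cells that sits beside claudin-7 and tetraspanins, can be cleaved by membrane proteases, and is widely used to capture carcinoma cells. The CEACAM proteins are immunoglobulin-like adhesion molecules. CEACAM1 spans the membrane and can signal through its cytoplasmic tail, whereas CEACAM5 (carcinoembryonic antigen, CEA), CEACAM6 and CEACAM7 are held by a glycosylphosphatidylinositol (GPI) anchor. CD24 is a short, heavily glycosylated GPI-anchored protein that binds selectins and Siglec-10, and low CD24 is often used together with CD44 to describe mesenchymal or stem-like carcinoma cells.

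Levels are given as log2 expression, so that a difference of 1 is a doubling. The 98 olfactory receptor genes of the table, which lung cells are not known to use, served as a guide to the low end of the scale. Their median was between 4.12 and 4.41 on the 18 arrays, their 95th percentile between 5.82 and 6.26, and the top level of any gene between 14.41 and 14.62. In HCC827, 1 array of each state stood apart. In HCC827 Parental replicate 1, 79 genes lay more than 1 log2 unit from the mean of the other two arrays of its group, in HCC827 EMT replicate 3 there were 51 such genes, and the remaining 16 arrays had 1 to 13. Without HCC827 EMT replicate 3, EPCAM (-2.67) and CEACAM6 (-2.42) were still called in HCC827. The labels held up on CDH1 (E-cadherin), whose log2 change in mesenchymal cells was -5.81 for A549, -2.95 for HCC827 and -3.94 for NCI-H358. Parental A549 cells already carried ZEB1, a repressor of epithelial genes, at 9.33 and CDH2 (N-cadherin) at 10.23. CDH2 also started high in NCI-H358 (9.30), though not in HCC827 (4.94). The starting level of ZEB1 was 6.13 for NCI-H358 and 6.02 for HCC827. Of the lung markers, NKX2-1 was low before EMT in A549 (3.67) but not in HCC827 (9.18) or NCI-H358 (8.62). SFTPB and SFTPC lay between 5.57 and 6.74 in all groups. CEACAM genes and CD24 are also made by blood cells, but the mean of 8 leukocyte markers stayed between 3.81 and 4.39 on every array. The group means of PTPRC (CD45) were 2.83 to 3.18. Of these 8 markers 0 were called in any line, where 0.736% to 1.63% of all genes were called lower and 0.811% to 1.32% higher. Such a call tests a change between the states and not the presence of blood cells. Among the leukocyte markers, ITGAM fell by 1.82 in A549. Of 4 endothelial markers 0 were called in any line, beside the same shares of all genes. KDR rose in NCI-H358 from 4.60 to 6.20 and in HCC827 by 0.43, and PECAM1 rose in HCC827 by 0.41. Among 8 lung epithelial markers, KRT19 was called lower in all lines and NAPSA in HCC827.

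Mesenchymal and parental cells were compared with limma, in 1 fit of the 18 arrays, with Benjamini-Hochberg adjustment over all genes. A gene was called when its adjusted p was below 1e-05 and its fold change above 5, which is the study's threshold, and it is said to have fallen or risen when its adjusted p was below 0.05. In A549, 2 of 6 members were called lower and 0 higher, where 0.736% of all genes were called lower and 1.17% higher. In HCC827, 2 of 6 were called lower and 0 higher, against 1.63% and 1.32% of all genes. In NCI-H358, 3 of 6 were called lower and 0 higher, against 1.36% and 0.811%. At an adjusted p below 0.05 alone, 3, 5 and 5 members had fallen in the 3 lines, in this order, while 26.8%, 25% and 19.8% of all genes had done so, and 0 members had risen in any line, against 16.6%, 20.8% and 21.5% of all genes. For A549, HCC827 and NCI-H358, the median change over the 6 members was -0.27, -1.87 and -2.30, beside medians over all genes of -0.02, 0.01 and 0.02. EPCAM and CEACAM6 were called in every line, CEACAM1 in NCI-H358, and CEACAM7 did not pass the test in any line.

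**Figure D1:**
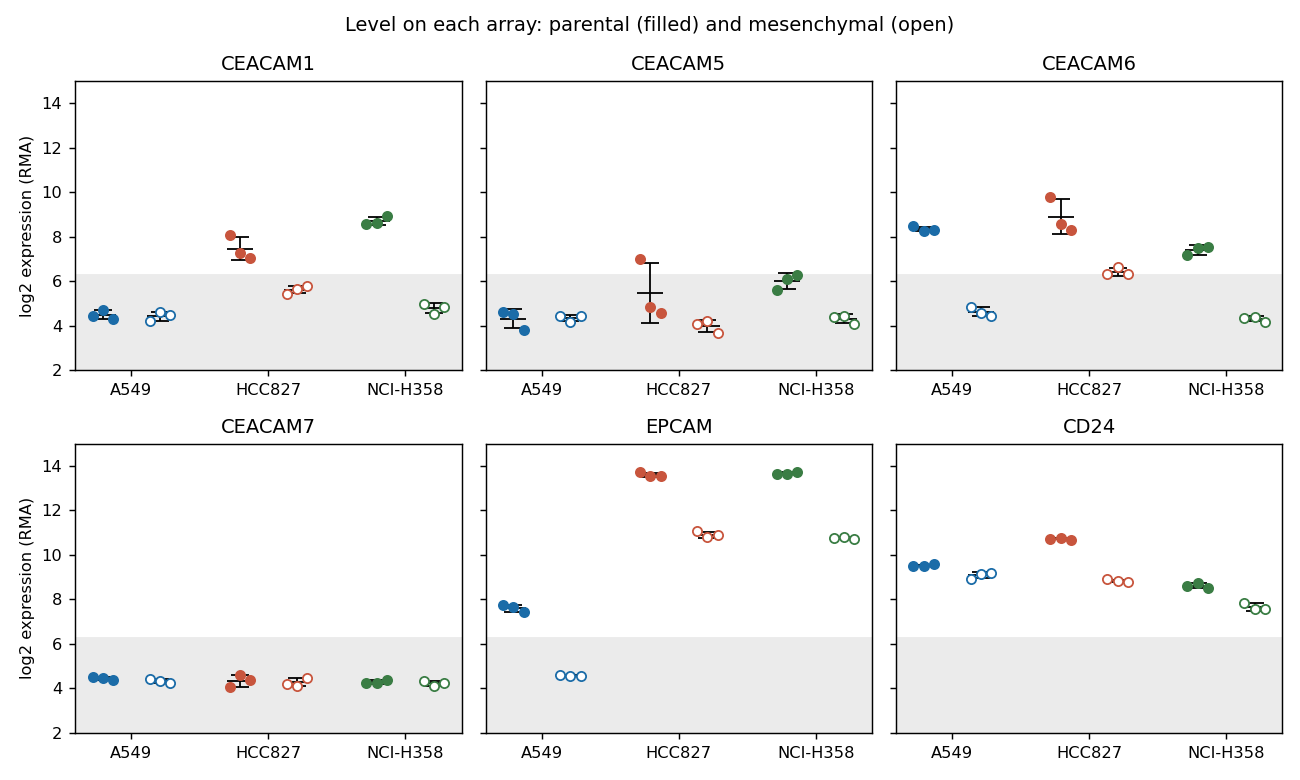
Log2 expression of the 6 members on each of the 18 arrays, with 1 panel per gene. Filled circles are parental and open circles mesenchymal cells, horizontal bars and whiskers give the mean ± SD of 3 arrays, and the grey band lies below 6.26, the highest 95th percentile of the olfactory receptor genes. EPCAM in mesenchymal HCC827 and NCI-H358 cells sits above EPCAM in parental A549 cells, CEACAM6 falls in every line, and CEACAM7 stays inside the band on all arrays.

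EPCAM fell by 6.43-fold to 8.14-fold in the 3 lines, from starting levels that lay far apart. In A549, EPCAM was at 7.73, 7.65 and 7.41 in the parental cells and at 4.59, 4.57 and 4.55 in the mesenchymal cells. In HCC827 it was at 13.72, 13.53 and 13.55 before and at 11.07, 10.79 and 10.89 after EMT. In NCI-H358 it was at 13.64, 13.65 and 13.73 before and at 10.76, 10.80 and 10.70 after. Parental and mesenchymal arrays of a line did not overlap, and the arrays of a group differed by much less than the groups. As the RNA was taken from whole cultures, fewer cells with EPCAM and less EPCAM RNA per cell cannot be told apart. The A549 log2 change was -3.03 (8.14-fold, SE 0.09, limma adjusted p = 2.31e-14), the HCC827 change -2.69 (6.43-fold, adjusted p = 9.84e-14) and the NCI-H358 change -2.92 (7.56-fold, adjusted p = 5.40e-14). With 3 arrays against 3, the smallest two-sided p of an exact permutation test is 0.1, which holds for every comparison of 2 groups here.

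The loss of EPCAM left very different amounts of its transcript. Parental HCC827 and NCI-H358 cells had EPCAM at the 99.7th percentile of their arrays, and their mesenchymal cells still had it at percentiles of 95.2 and 94.2. Mesenchymal HCC827 cells therefore held 9.97-fold more EPCAM than parental A549 cells (log2 difference 3.32, 95% interval 3.14 to 3.50, limma adjusted p = 2.51e-15), and mesenchymal NCI-H358 cells 8.91-fold more (3.16, 2.97 to 3.34, adjusted p = 3.79e-15). Parental A549 cells had EPCAM at a percentile of 64.4. In mesenchymal A549 cells the percentile was 23.5, where 61.2% of the olfactory receptor genes lay below it, so that the A549 fall ended within the low end of the scale and its fold may be understated. In the other lines EPCAM started near the top level, and whether the signal is compressed there was not tested. Over the 6 groups, EPCAM was highest in parental NCI-H358 and HCC827 cells, which did not differ beyond their spread (adjusted p = 0.530), followed by mesenchymal HCC827 and NCI-H358 cells, which likewise did not differ beyond their spread (adjusted p = 0.130), and then by parental and mesenchymal A549 cells.

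**Figure D2:**
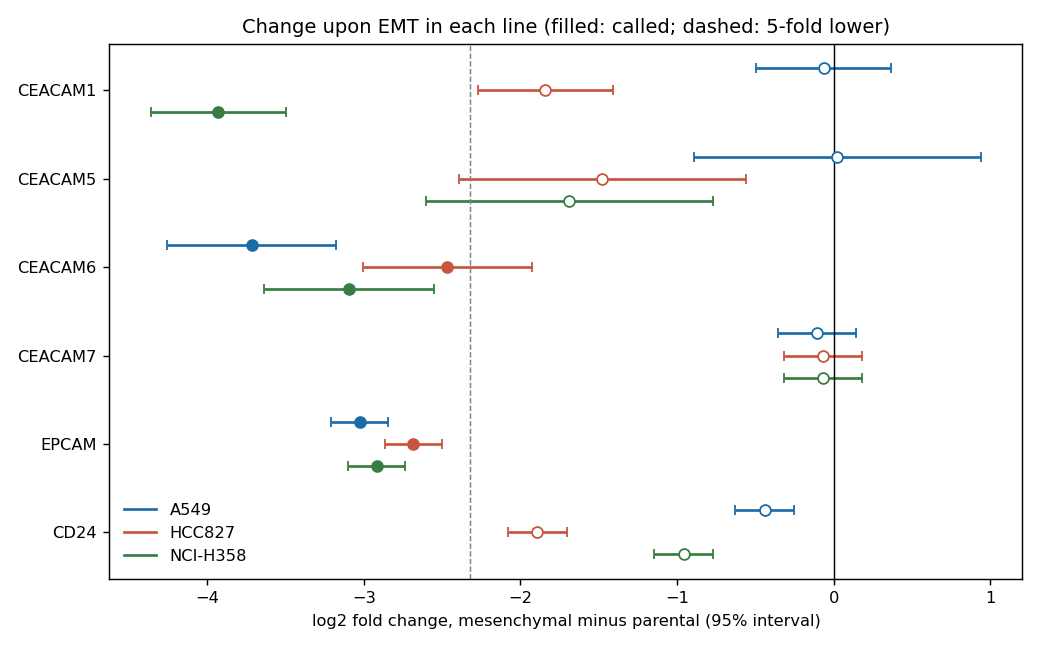
Log2 fold change of each member upon EMT (mesenchymal minus parental) in A549, HCC827 and NCI-H358, with the 95% interval of the limma fit. Filled circles passed the call threshold and the dashed line marks a 5-fold fall. The 3 EPCAM values lie between -3.03 and -2.69, while CEACAM1 runs from -0.06 in A549 to -3.93 in NCI-H358.

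Some of the molecules known to sit with EPCAM or to act on it were called in HCC827 and in NCI-H358. Of 16 genes in the list of EPCAM partners and processing genes, 0 were called in A549, 5 were called lower and 0 higher in HCC827, and 5 lower and 1 higher in NCI-H358. Of all genes, 0.736%, 1.63% and 1.36% were called lower in A549, HCC827 and NCI-H358, and 1.17%, 1.32% and 0.811% higher. At an adjusted p below 0.05, 4, 10 and 8 had fallen and 4, 2 and 4 had risen in A549, HCC827 and NCI-H358. Of all genes, 26.8%, 25% and 19.8% fell and 16.6%, 20.8% and 21.5% rose. The median change of the list was 0.0073, -0.33 and -0.46 in A549, HCC827 and NCI-H358. CLDN7, the claudin that binds EPCAM, fell in HCC827 (-3.38) and NCI-H358 (-2.96), with a value of -0.15 in A549 (adjusted p = 0.541). The tetraspanin CD9 fell in all lines, with changes of -1.81, -2.37 and -5.46 for A549, HCC827 and NCI-H358. TSPAN8, another tetraspanin, fell by 6.25 in HCC827, from 9.41 to 3.16, fell in NCI-H358 (-2.41), and was at 2.97 in parental A549 cells. The protease matriptase (ST14), which cleaves EPCAM, fell in HCC827 (-3.57) and NCI-H358 (-3.66). Its inhibitor SPINT1 fell in these lines too (-2.59 and -3.69), and both ST14 and SPINT1 were at or below 5.15 in A549 in either state. SPINT2, the second inhibitor, fell in all lines (-1.58, -0.92 and -2.03).

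CD44, an adhesion receptor read together with CD24 and EPCAM, had log2 differences of -0.08, -0.23 and 0.12 in A549, HCC827 and NCI-H358, none of which passed the test. LEF1, a transcription factor that can act with the cleaved EPCAM tail, was the gene called higher in NCI-H358, by 2.75. Without being called, BACE1, a membrane protease that can cleave EPCAM, rose in all lines (0.45, 1.39 and 1.56), and CTNNB1 (beta-catenin) rose in A549 (1.40) and HCC827 (0.73).

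**Figure D3:**
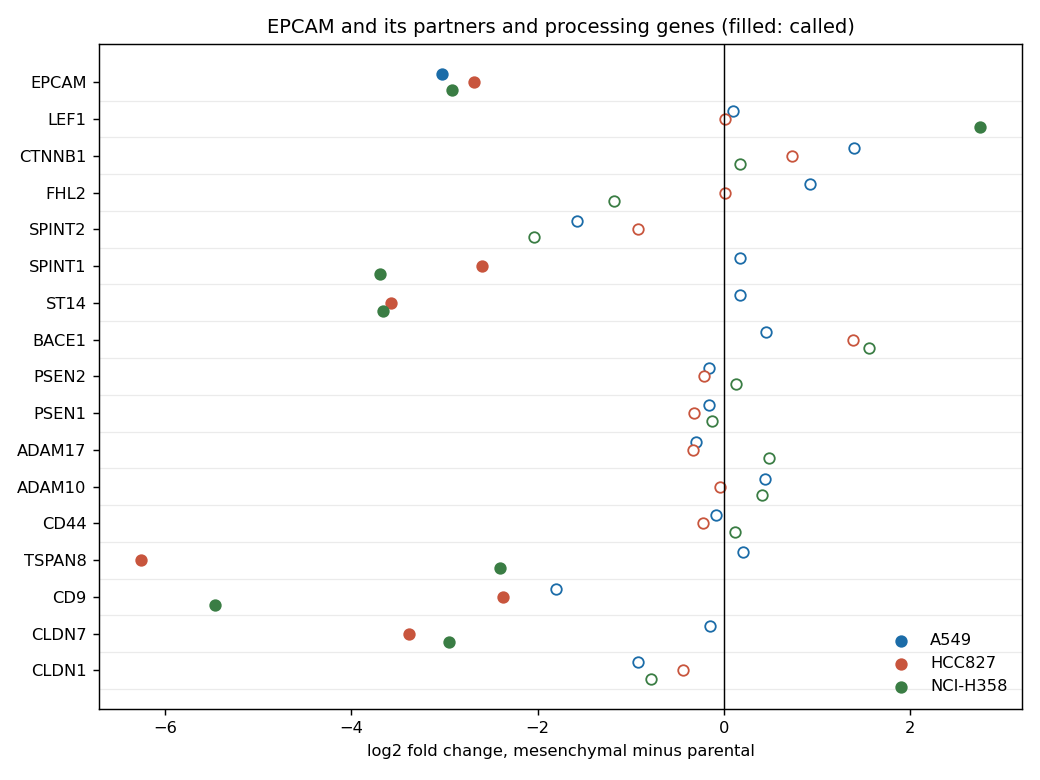
Log2 fold change upon EMT of EPCAM and of the 16 genes of its list, in A549, HCC827 and NCI-H358 (colors), with filled circles for called genes. EPCAM has 3 filled circles close together, whereas CLDN7, TSPAN8, ST14 and SPINT1 are near 0 in A549 and far below 0 in the other lines.

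The 4 CEACAM members lie on chromosome 19 in groups of related genes. In the RefSeq order, CEACAM7, CEACAM5 and CEACAM6 are consecutive, between CEACAM4 and CEACAM3, and CEACAM1 lies apart from them between CXCL17 and CEACAM8. The 250 bases before the transcription start were taken from RefSeq (GRCh38.p14) and are shown 5′ to 3′. They are printed because these genes have like promoters. The measured changes differed, but CEACAM7 in all groups, and CEACAM5 and CEACAM1 in A549, lay at the low end, where no fall could be seen. A difference in response is therefore not shown for these. Capitals mark CACGTG and CACCTG, searched on both strands, which are 2 forms of the E-box. The first is known to be bound by USF and MYC proteins and the second by the EMT repressors of the ZEB and SNAI families.
CEACAM7 (chr19:41688271-41688520, minus strand): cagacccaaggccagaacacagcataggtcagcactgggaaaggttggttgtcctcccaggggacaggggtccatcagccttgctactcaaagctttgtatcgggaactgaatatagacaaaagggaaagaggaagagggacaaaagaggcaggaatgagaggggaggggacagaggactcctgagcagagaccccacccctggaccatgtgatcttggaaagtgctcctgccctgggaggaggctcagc
CEACAM5 (chr19:41708376-41708625, plus strand): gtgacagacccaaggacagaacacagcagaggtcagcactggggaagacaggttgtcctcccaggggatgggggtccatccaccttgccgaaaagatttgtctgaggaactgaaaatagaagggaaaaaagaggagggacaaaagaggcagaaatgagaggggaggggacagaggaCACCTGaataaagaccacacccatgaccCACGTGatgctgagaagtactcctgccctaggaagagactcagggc
CEACAM6 (chr19:41755280-41755529, plus strand): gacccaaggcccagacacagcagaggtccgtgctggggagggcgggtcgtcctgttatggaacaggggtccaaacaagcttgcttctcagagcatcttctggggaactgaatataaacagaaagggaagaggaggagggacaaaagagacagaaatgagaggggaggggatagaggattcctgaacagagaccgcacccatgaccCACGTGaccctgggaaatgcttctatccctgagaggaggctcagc
CEACAM1 (chr19:42528482-42528731, minus strand): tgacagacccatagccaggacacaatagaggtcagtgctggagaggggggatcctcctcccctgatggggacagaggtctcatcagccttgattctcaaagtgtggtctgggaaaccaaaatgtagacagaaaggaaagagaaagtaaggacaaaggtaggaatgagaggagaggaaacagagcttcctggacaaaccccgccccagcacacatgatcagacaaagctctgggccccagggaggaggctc

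These windows were alike. Of the 250 bases, 206 were identical between CEACAM5 and CEACAM7 (82.4%), 203 between CEACAM6 and CEACAM7 (81.2%) and 194 between CEACAM5 and CEACAM6 (77.6%), and CEACAM1 shared 71.2% to 76.8% with the other three. CACGTG began 46 bases before the start of CEACAM5 and 45 bases before that of CEACAM6. It was not found in the windows of CEACAM7 and CEACAM1, although each of them held the looser motif CANNTG, which includes both forms, 44 and 41 bases before the start. CACCTG was found in the CEACAM5 window alone, 74 bases before the start. Of 35116 RefSeq promoter windows of this length, 6.34% held CACGTG, 17.5% held CACCTG and 61.8% held CANNTG. Matches are a description of these letters, and binding was not measured. Of the 6 members, 5 had an entry in the promoter table.

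CEACAM6 was the CEACAM member called in every line. In A549 it was at 8.46, 8.26 and 8.31 in parental cells and at 4.84, 4.58 and 4.46 in mesenchymal cells. In HCC827 it was at 9.79, 8.59 and 8.29 before and at 6.31, 6.63 and 6.34 after EMT. In NCI-H358 it was at 7.17, 7.49 and 7.55 before and at 4.33, 4.41 and 4.18 after. No mesenchymal array reached a parental array of its line. The A549 log2 change was -3.72 (13.1-fold, SE 0.26, limma adjusted p = 2.70e-09), the HCC827 change -2.47 (5.53-fold, adjusted p = 3.50e-07) and the NCI-H358 change -3.09 (8.54-fold, adjusted p = 2.55e-08). Mesenchymal A549 and NCI-H358 cells ended among the olfactory receptor genes, with 63.3% and 52.0% of these below their means, so that their folds may be understated. Mesenchymal HCC827 cells kept CEACAM6 above 96.9% of them, and 3.48-fold above mesenchymal A549 cells (adjusted p = 9.90e-06). The HCC827 change minus the A549 change was 1.25 (adjusted p = 0.00977). Without HCC827 Parental replicate 1, which was the highest of its group, the HCC827 change was -2.02 (adjusted p = 8.69e-09) and its 4.05-fold fall was no longer called.

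CEACAM1 was near the low end in A549 in both states and fell in the other lines. In A549 it was at 4.46, 4.71 and 4.30 in parental and 4.21, 4.60 and 4.47 in mesenchymal cells, which overlapped and lay at the low end (change -0.06, adjusted p = 0.837). In HCC827 it was at 8.07, 7.27 and 7.06 before and at 5.45, 5.67 and 5.77 after EMT, a change of -1.84 (3.58-fold, SE 0.20, adjusted p = 7.92e-07). In NCI-H358 it was at 8.59, 8.62 and 8.93 before and at 4.97, 4.53 and 4.85 after, a change of -3.93 (15.2-fold, adjusted p = 6.16e-11). Mesenchymal NCI-H358 cells also ended at the low end, where 68.4% of the olfactory receptor genes lay below CEACAM1, against 61.2% and 53.1% in parental and mesenchymal A549 cells. No fall could exceed the distance from the start to the low end, and A549 started there. The differences from A549 therefore cannot be told apart from those in starting level. Mesenchymal HCC827 cells kept CEACAM1 above 88.8% of the olfactory receptor genes. Whether the starting level plays a part between HCC827 and NCI-H358 was not tested. The change differed in each pair of lines, at -1.78 for HCC827 minus A549 (adjusted p = 7.95e-05), -3.86 for NCI-H358 minus A549 (adjusted p = 1.04e-08) and -2.09 for NCI-H358 minus HCC827 (adjusted p = 1.85e-05). After EMT, CEACAM1 was higher in HCC827 than in NCI-H358 by 0.84 (adjusted p = 0.00198), the reverse of the parental order. Mesenchymal NCI-H358 cells did not differ from parental A549 cells beyond their spread (adjusted p = 0.232).

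CEACAM5, the antigen known as CEA, was low on most arrays. In A549 it was at 4.60, 4.52 and 3.83 in parental and 4.43, 4.17 and 4.43 in mesenchymal cells, which overlapped (change 0.02, adjusted p = 0.975). In NCI-H358 it was at 5.60, 6.09 and 6.30 before and at 4.39, 4.46 and 4.08 after EMT, a change of -1.69 (3.22-fold, SE 0.43, adjusted p = 0.00418). In HCC827 it was at 6.999, 4.86 and 4.55 before and at 4.09, 4.21 and 3.67 after. The parental HCC827 arrays thus spanned more than the difference between the states, although they did not overlap with the mesenchymal ones. The HCC827 change of -1.48 (adjusted p = 0.00935) became -0.71 without HCC827 Parental replicate 1 (adjusted p = 0.0223). It did not pass 0.05 in a separate limma fit of the line (adjusted p = 0.0732) or with a t-test of each gene (adjusted p = 0.245). The NCI-H358 change minus that of A549 was -1.71 (adjusted p = 0.0322), but leaving out any of 6 single arrays took this difference past 0.05.

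CEACAM5 was the gene by which HCC827 Parental replicate 1 stood out most. It exceeded the mean of the other two arrays of its group by 2.29, the largest such excess among all 19849 genes. The next in order were ST6GALNAC1 at 2.17, KRT20 at 1.99, PMCH at 1.96 and CYP4B1 at 1.74. CEACAM6 came 18th with 1.34 and CEACAM1 98th with 0.90, whereas EPCAM differed by 0.18, CD24 by 0.00 and CEACAM7 by -0.45. The excess thus held 3 of the CEACAM members and not EPCAM and CD24, whose parental HCC827 arrays lay close together. ST6GALNAC1, a sialyltransferase of mucin-type glycans, and KRT20, an intestinal keratin, were at 7.56 and 6.69 on this array and at or below 5.47 and 4.88 on the other two. What sets this culture or array apart was not tested.

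**Figure D4:**
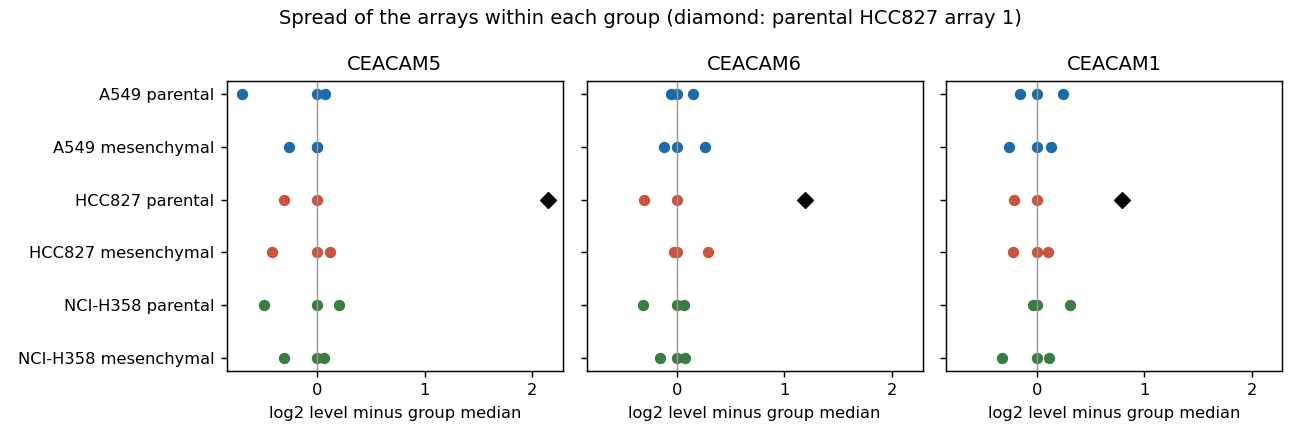
Log2 level of CEACAM5, CEACAM6 and CEACAM1 on each array minus the median of its group, with the 6 groups in rows and 3 arrays in each. The black diamond is HCC827 Parental replicate 1, which lies to the right of every other array in each panel.

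CEACAM7 was at the low end throughout. Over the 18 arrays it ran from 4.05 to 4.60, and its change was -0.11, -0.07 and -0.07 for A549, HCC827 and NCI-H358 (adjusted p = 0.513, 0.685 and 0.717). The 95% intervals of these changes lay between -0.36 and 0.18, and no neighbors in the order of the 6 group means differed beyond their spread. Its probe set gave no level above that of the olfactory receptor genes.

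The genes next to the CEACAM members did not pass the test in the lines where the members fell. Among those consecutive with the members in the RefSeq order, CEACAM4 had log2 differences of 0.01, -0.05 and -0.08 and CEACAM3 of -0.02, 0.12 and -0.02 in A549, HCC827 and NCI-H358, and neither passed the test. LYPD4, next to CEACAM3, had differences of -0.04, 0.13 and -0.03. At the other locus, CXCL17 and CEACAM8 on both sides of CEACAM1 did not pass the test in any line, with CEACAM8 between 2.71 and 2.97 in all groups. CEACAM4 was at 5.32 to 5.51, below the 95th percentile of the olfactory receptor genes, and CEACAM3 at 6.16 to 6.42, near it. In parental cells CXCL17 was at 4.47 to 4.73 and LYPD4 at 4.26 to 4.55. A fall of CXCL17, LYPD4 or CEACAM8 from these low levels could hardly be seen. By line, 0.736% to 1.63% of all genes were called lower and 0.811% to 1.32% higher. Of 18 further CEACAM and pregnancy-specific glycoprotein (PSG) genes, 14 were in the table and 0 of 14 were called in any line, with median changes of -0.00, 0.06 and -0.08. The largest mean changes among them were those of PSG3, at -0.01, -0.30 and -0.41, and PSG5, at -0.05, -0.17 and -0.47. Beside EPCAM, CALM2 changed by -0.23, 0.22 and -0.15, each past an adjusted p of 0.05.

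**Figure D5:**
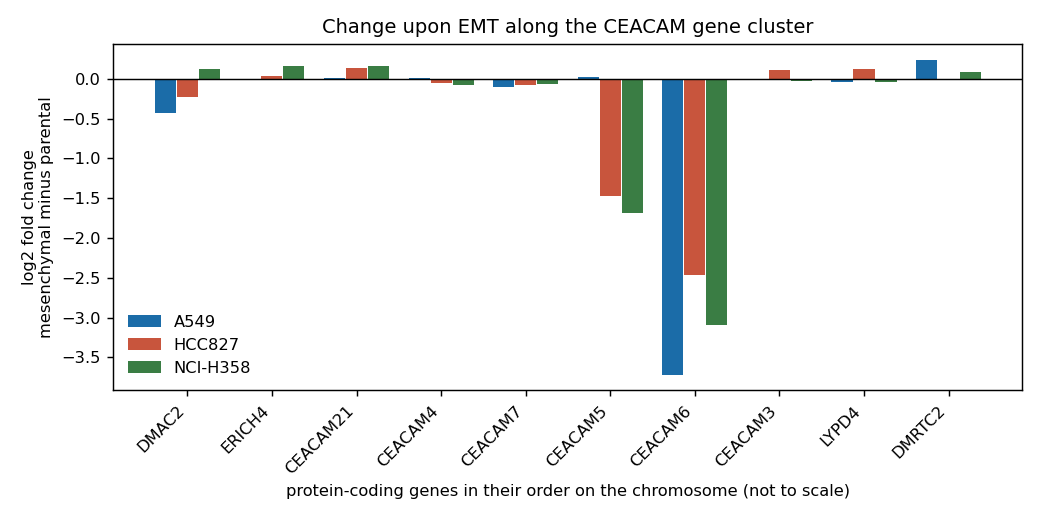
Log2 fold change upon EMT (bars, 1 color per line) of the protein-coding genes around CEACAM7, CEACAM5 and CEACAM6, placed in their RefSeq order and not to scale. CEACAM6 is far below 0 in all lines and CEACAM5 in HCC827 and NCI-H358, while the bars of CEACAM7 and of the genes on either side stay within 0.43 of 0.

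CD24 fell in every line without reaching the fold change of a call. In A549 it was at 9.50, 9.52 and 9.57 in parental and at 8.93, 9.14 and 9.20 in mesenchymal cells, a change of -0.44 (1.36-fold, SE 0.09, limma adjusted p = 5.94e-04). In HCC827 it was at 10.72, 10.75 and 10.69 before and at 8.90, 8.81 and 8.78 after EMT, a change of -1.89 (3.71-fold, adjusted p = 1.37e-11). In NCI-H358 it was at 8.60, 8.76 and 8.51 before and at 7.85, 7.57 and 7.57 after, a change of -0.96 (1.94-fold, adjusted p = 1.10e-07). The parental and mesenchymal arrays did not overlap in any line. The change differed in every pair of lines, at -1.45 for HCC827 minus A549 (adjusted p = 6.50e-08), -0.52 for NCI-H358 minus A549 (adjusted p = 0.00287) and 0.93 for NCI-H358 minus HCC827 (adjusted p = 1.41e-05). Mesenchymal A549 cells, with a mean of 9.09, held more CD24 than parental NCI-H358 cells with 8.62, and the lowest group, mesenchymal NCI-H358, was still at a percentile of 65.5.

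The lines also differed in how their members were placed before and after EMT. Of 6 members, 2 were called between parental HCC827 and A549 cells and 2 between parental NCI-H358 and A549 cells, against 5.15% and 6.19% of all genes, and 0 between parental NCI-H358 and HCC827 cells, against 3.32%. The calls were CEACAM1, higher than in A549 by 2.98 and 4.23, and EPCAM, higher by 6.00 and 6.07. CEACAM6 and CD24 showed other orders. CEACAM6 was lower before EMT in NCI-H358 than in HCC827 (difference -1.49, adjusted p = 8.23e-05), as was CD24 (difference -2.10, adjusted p = 2.65e-12). Among mesenchymal cells EPCAM alone was called, higher than in A549 by 6.34 in HCC827 and 6.18 in NCI-H358, which is 1 of 6 members in each pair against 4.51% and 5.83% of all genes, and 0 were called between NCI-H358 and HCC827, against 3.47%.

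The size of the EMT change differed between lines, at an adjusted p below 0.05, for 4 of 6 members between HCC827 and A549, 3 between NCI-H358 and A549 and 2 between NCI-H358 and HCC827. Of all genes, 42.2%, 42.8% and 37.9% passed the same test in these pairs, so that these counts are not a result about the members. The comparisons share their arrays and are not independent of each other. EPCAM contributed the smallest of these differences. With the A549 fall limited by the low end, its HCC827 change minus its A549 change was 0.34 (95% interval 0.08 to 0.60, adjusted p = 0.0318), a difference that leaving out any of 7 single arrays took past 0.05. The NCI-H358 change of EPCAM minus that of HCC827 was -0.23 (-0.49 to 0.02, adjusted p = 0.152), and minus that of A549 it was 0.11 (-0.15 to 0.36, adjusted p = 0.531). For CEACAM6, NCI-H358 differed from HCC827 by -0.63 (-1.39 to 0.14, adjusted p = 0.199), and by -1.08 without HCC827 Parental replicate 1 (adjusted p = 2.99e-04).

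Of 14 binding partners and signaling molecules of CEACAM proteins and CD24, 0 were called in A549 and NCI-H358. In HCC827, 1 was called lower and 1 higher. The shares of all genes called lower in A549, HCC827 and NCI-H358 were 0.736%, 1.63% and 1.36%, and those called higher 1.17%, 1.32% and 0.811%. LYN, a Src-family kinase known to associate with CEACAM1, fell in A549, HCC827 and NCI-H358 (-0.37, -2.91 and -1.59). ITGA5, an integrin chain of the fibronectin receptor, rose by 0.72, 2.70 and 2.23. The list's median change was -0.05, -0.03 and 0.02. ITGB1, a widely made integrin chain, was listed at 3.50 to 4.98 in the 6 groups, so that a row of this table, which is 1 probe set, can lie at the low end for a gene that cells are known to make.

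At the protein level, CEACAM5, CEACAM6, CEACAM7 and CD24 depend on the GPI anchor machinery. Of 29 genes of GPI synthesis and transfer, 0 were called in any line. In A549, HCC827 and NCI-H358, 0.736%, 1.63% and 1.36% of all genes were called lower and 1.17%, 1.32% and 0.811% higher. Beside such small shares, 0 of 29 is not a result about these genes. At an adjusted p below 0.05, 15, 10 and 7 had fallen in A549, HCC827 and NCI-H358, while 0, 6 and 8 had risen. As shares of 29 these stand beside the 26.8%, 25% and 19.8% of all genes that fell and the 16.6%, 20.8% and 21.5% that rose. The median change of the 29 genes was -0.22, -0.11 and 0.05, beside -0.02, 0.01 and 0.02 for all genes. The largest mean changes were those of PIGF, which acts late in anchor assembly and fell in each line (-0.48, -0.98 and -0.69), and of PGAP2, which remodels the anchor's lipid and fell as well (-0.61, -0.90 and -0.37). Among 37 other GPI-anchored surface proteins, 2 were called higher and 1 lower in A549, 1 higher and 4 lower in HCC827, and 0 higher and 2 lower in NCI-H358. As shares of 37 these counts stand beside the shares of all genes called, given above for the 29 genes. LY6D, a surface protein of squamous and other epithelia, fell in HCC827 (-3.56) and NCI-H358 (-2.70), as did PRSS8 (prostasin, a membrane protease of epithelia that works with matriptase, -3.43 and -3.19). Neither passed the test in A549. EFNA1, a ligand of Eph receptors, rose by 2.65 in A549 and fell in HCC827 (-2.79) and NCI-H358 (-2.19). The medians over the 37 genes were -0.00, 0.02 and -0.11.

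The genes whose levels followed each member most closely over the 18 arrays were named by Pearson correlation, as a description with no test, since the arrays share 3 lines and 2 states. EPCAM was followed by VAMP8 (r = 0.990), a vesicle fusion protein, PSMB8 (0.989), an immunoproteasome subunit, and PKIB (0.985), an inhibitor of protein kinase A. CEACAM6 was followed by HPGD (0.978), which breaks down prostaglandins and fell in each line (-6.96, -3.19 and -4.75), and by ASPH (0.977) and TMC5 (0.969). CEACAM1 was followed by DUSP6 (0.983), a phosphatase of the kinase ERK, LEMD1 (0.980) and CASP1 (0.979), the inflammasome caspase. CEACAM5 was followed by ST6GALNAC1 (0.918), UBXN10 (0.904) and BLNK (0.889), and CD24 by MINK1 (0.981), PLA2G16 (0.970) and BAG1 (0.958). CEACAM7 had no close follower, since its highest r were 0.578 for LOC284219, 0.548 for NOSTRIN and 0.540 for HNF4A. ST6GALNAC1 was also second to CEACAM5 in the excess of HCC827 Parental replicate 1, and its r without that array was 0.893.

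EPCAM and CEACAM6 were alike within lines but not between them. Over the 18 arrays their r was 0.463, and after each line's mean was taken off it was 0.979. Over 3 lines and 2 states, the second value describes that both genes fell in every line in near proportion. It does not compare the amounts by which they fell. For EPCAM and CD24 the same values were 0.100 and 0.842. For CEACAM1 and EPCAM they were 0.824 and 0.757, as both were highest in the parental cells of HCC827 and NCI-H358. CEACAM7 had values between -0.19 and 0.30 with the others after the line means were taken off.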

How the data were processed

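Total RNA of 18 cultures was hybridized to Affymetrix U133 Plus 2.0 arrays. Per the labels and the methods, RMA was used, and the deposited log2 values cover 1 probe set per gene. The version of RMA, the rule for choosing the probe set and the genome build are not given in the sources used here. RMA equalizes the distribution of the arrays, so that levels are relative to the other genes, and values near the low end compress fold changes. The probe sets of CD24, CEACAM7 and EPCAM are of a kind that can match several transcripts. Columns were matched to samples by title, and 0 columns were left without a sample. The columns were read as deposited, and 0 pairs of arrays were identical. The labels give no batch and no pairing. The titles begin with array numbers whose meaning is not stated. In each line the number of Parental replicate 1 stands apart from those of the other Parental arrays, and HCC827 Parental replicate 1 is among these.

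Groups were compared by lmFit and eBayes of limma (version 3.58.1, under R 4.3.3), in a single fit with 6 groups of 3 arrays and no covariate, with Benjamini-Hochberg adjustment over 19849 genes. The threshold for calls (adjusted p below 1e-05, fold change above 5) is the study's, and differences between lines used an adjusted p below 0.05. On data simulated from the table, 200 of 200 genes with an 8-fold change were called in each line, with 0 false calls. The simulated noise was independent and normal, with no low end and no array that stood apart. The simulation therefore does not speak to calls near the threshold or near the low end. The number of arrays sets the precision. Windows before transcription starts were aligned with Biopython 1.88.

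The members, the 9 gene lists and the tests were chosen with earlier results of these data known. The genes named were the 6 members, the 3 genes of highest Pearson correlation with each (among genes with a standard deviation above 0.5), the list genes called in at least 2 lines or otherwise the 2 of largest mean change, and the markers. Genes outside this rule, namely neighbors on the chromosome, genes of the array that stood apart, LEF1, CD44, SPINT2, BACE1, CTNNB1, PECAM1 and ITGB1, were chosen after their values were seen. Some genes, 1 of them from a list, are not reported here. The alternatives tried were other priors, a separate fit per line, a filter on dim genes, centring, quantile normalization, percentile ranks and other thresholds. A t-test of each gene, the exact permutation test and leaving out each array were also tried.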

Additional observations from a re-analysis of the deposited data

Results flagged for a closer look

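The change upon EMT differed between lines, by the interaction contrast of the limma fit at an adjusted p below 0.05, in 9 of 18 tests over the members and pairs of lines. The values below are the change in the first line minus that in the second, and no cause was tested.

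For CEACAM1 the difference was -1.78 for HCC827 against A549, -3.86 for NCI-H358 against A549 and -2.09 for NCI-H358 against HCC827. Parental A549 cells had CEACAM1 at the low end of the scale. For CD24 the difference was -1.45 for HCC827 against A549, -0.52 for NCI-H358 against A549 and 0.93 for NCI-H358 against HCC827. CD24 was well above the low end in all 6 groups.

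For CEACAM6 the difference was 1.25 for HCC827 against A549, and 1.70 without HCC827 Parental replicate 1. For EPCAM it was 0.34 for HCC827 against A549, with mesenchymal A549 cells at the low end of the scale. For CEACAM5 it was -1.71 for NCI-H358 against A549. The last of these rests on levels that were all at or below 6.30.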

How the results depend on the processing

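Of 264 values of the members' EMT change under the alternatives, 238 kept their direction and side of the threshold. So did 373 of 408 differences between lines, 406 of 408 parental and 402 of 408 mesenchymal comparisons. For the comparisons between lines, each of the 18 arrays was left out in turn, also those of groups not compared. Leaving out the latter cannot change an estimate, so that the direction of many of these values was fixed in advance. The counts of called members were 2, 2 and 3 for A549, HCC827 and NCI-H358. They became 0, 0 and 0 with a t-test of each gene after Benjamini-Hochberg adjustment. There the falls of EPCAM had adjusted p of 3.09e-04, 5.80e-04 and 9.50e-05. For the arrays the study's methods name limma, and a t-test only for data with no other test stated. With the exact permutation test, whose smallest p is 0.1, the count was 0 in each line. In HCC827 the count was 4 with a fold change above 2, 5 with an adjusted p below 0.05 alone, 1 in a separate fit, where the adjusted p of CEACAM6 was 6.16e-04, and 1 to 2 when 1 array was left out. In NCI-H358 it was 5 with an adjusted p below 0.05 alone. In the 5 gene lists, without the markers, 15 distinct genes were called in at least 1 line, and 42 with a fold change above 2. Of the 18 genes most like the members, 2 were named again with Spearman correlation, 2 after line means were taken off, and 11 without HCC827 Parental replicate 1, an alternative chosen after seeing the data.

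Leaving out that array brought the CEACAM5 and CEACAM6 differences between NCI-H358 and HCC827 (-0.98 and -1.08) and the CEACAM6 difference between NCI-H358 and A549 (0.62, adjusted p = 0.0103) past the threshold. The CEACAM5 difference between HCC827 and A549 (-1.50, adjusted p = 0.0594) passed with an intensity trend (adjusted p = 0.0311). Values that changed sign were uncalled and near 0. The CEACAM1 change in A549 was 0.0038 after centring and -0.16 to 0.044 when 1 array was left out. The CEACAM5 change in A549 was -0.024 after quantile normalization and -0.22 to 0.16 when 1 array was left out. With 1 array left out, the CEACAM5 difference between NCI-H358 and HCC827 ran from -0.98 to 0.25, and between mesenchymal NCI-H358 and A549 cells from -0.12 to 0.084. The CEACAM7 change in HCC827 ran from -0.22 to 0.055, and its differences of change from -0.11 to 0.16 (HCC827 and A549), -0.013 to 0.099 (NCI-H358 and A549) and -0.12 to 0.15 (NCI-H358 and HCC827, -0.023 after centring). Its parental comparisons ran from -0.23 to 0.047 (HCC827 and A549) and -0.20 to 0.078 (NCI-H358 and HCC827), and its mesenchymal ones from -0.17 to 0.0067 and -0.12 to 0.056 in the same pairs. The filter on dim genes kept 14247 genes and 4 of 6 members, without CEACAM5 and CEACAM7. No paired analysis was possible because the labels give no replicate numbers. Signal near the low end limits what can be said of CEACAM7 and CEACAM5, and of CEACAM1 in A549.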
